A study of Mus musculus with 17 samples.

Results

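The comparison set blastocysts against oocytes, the ends of mouse preimplantation development, on single-colour Affymetrix MG-U74Av2 arrays. It took every array titled Blastocyst (3 arrays) and every array titled Oocyte (4 arrays), 7 of the 17 arrays of the series. The other 10 arrays held 1-cell, 2-cell and 8-cell embryos and are used for the shared estimate of the spread and for the course between the ends. Per the labels, the material was total RNA of mouse origin that was amplified by in vitro transcription in 2 rounds. Neither the labels nor the files give the strain, the age of the mothers, the maturation stage of the oocytes or the number of embryos per sample. They are also silent on whether arrays of a stage hold separate collections, so the spread behind every p-value is that between these arrays and may be no more than technical.

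The full-grown oocyte is a large cell with little transcription that lives on stored mRNA. It is wrapped in a coat of zona pellucida glycoproteins and is held in meiosis until hormone and sperm release it. After fertilisation the stored mRNA is degraded and the genome of the embryo is switched on. By the blastocyst stage an outer epithelium, the trophectoderm, has sealed itself with junctions and pumps fluid into a cavity, and the inner cell mass gives rise to the pluripotent epiblast and the primitive endoderm.

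Values are probe set signals as deposited, on a linear scale. Changes are blastocyst minus oocyte differences of mean log2(signal + 11) ± SE, and folds are taken from them. Mean signals carry the SD over the arrays of a stage (n = 3 for blastocysts, n = 4 for oocytes). The offset of 11 understates the change of dim genes, and where 1 stage lies near background the fold depends on it. A gene was called when its adjusted p from limma, a linear model fitted over all probe sets, was below 0.05. Of 12488 probe sets, 8067 were tested, those with at least 3 arrays above 41.1, which is the median signal. They stood for 6044 genes, each read from its brightest probe set. Signals of different probe sets are not compared with each other, and the number of arrays limits the precision.

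Arrays of the same stage resembled each other closely, with correlations across probe sets of 0.960 to 0.973 among blastocysts and 0.970 to 0.979 among oocytes, against 0.510 to 0.540 between the stages (probe sets are not independent replicates). The array medians lay at 34.05 to 44.1 for blastocysts and 37.4 to 40.7 for oocytes. Hybridisation spikes, control transcripts added at the hybridisation step, were higher on blastocyst arrays by 0.35 on the log2 scale. Scaling the arrays on these spikes moves the median change of all tested probe sets to -0.39, against -0.07 as deposited. All changes here are therefore relative to the mean signal of an array. The spike scaling does not measure the RNA per embryo or the yield of the amplification, so it gives no absolute change. Control probe sets of 18S ribosomal RNA gave changes of 1.37 to 1.45. The control probe sets along the beta-actin transcript were higher by 4.38 at the 5′ end, 4.12 in the middle and 3.47 at the 3′ end, and those of Gapdh by 1.54, 1.73 and 2.02. The 2 transcripts thus differed in which end changed more.

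Blastocysts and oocytes differed at most genes measured. Of the 6044 genes, 4003 (66.2%) were called, 1959 higher (32.4%) and 2044 lower (33.8%) in blastocysts. At least 2-fold, 1437 were higher (23.8%) and 1373 lower (22.7%), and at least 8-fold, 312 were higher (5.16%) and 274 lower (4.53%), while 4 times the offset gave 153 and 148. The arrays of the 2 stages did not overlap for 4127 genes (68.3%). Genes named below as the largest rises and falls were chosen for lack of overlap, so it is no separate finding for them. The middle 95% of the changes ran from -3.74 to 3.80. Over probe sets, 5184 of 8067 (64.3%) were called, 2597 higher and 2587 lower, and with the arrays scaled on the spikes the split was 1873 higher and 2985 lower. These shares are the background against which each group of genes below is read.

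**Figure D1:**
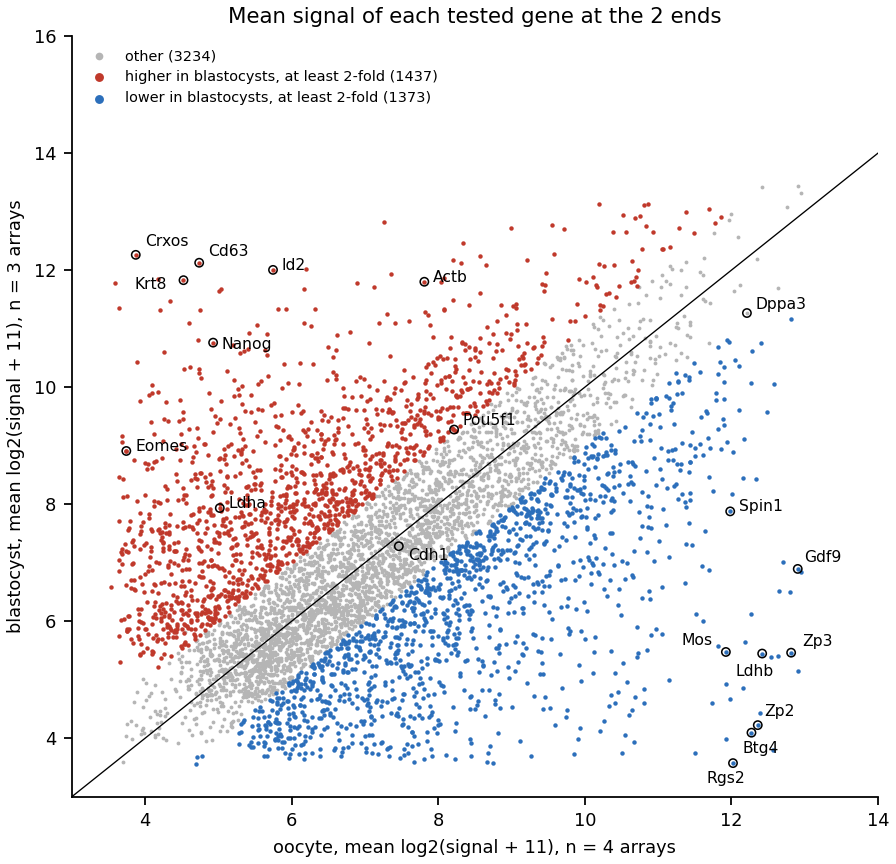
Mean log2(signal + 11) of each of the 6044 genes tested, over the 3 blastocyst arrays (vertical axis) and over the 4 oocyte arrays (horizontal axis). Coloured points are the 1437 genes called higher and the 1373 called lower by at least 2-fold, grey points are all others, and named points such as Krt8 and Zp3 lie far from the diagonal of equal signal.

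The stage labels were set beside markers of each stage. Members and lists were chosen with earlier results of these data known, so the markers are no independent check of the labels. Of the 12 oocyte markers, Zp1, Zp2, Zp3, Gdf9, Bmp15, H1f8, Mos, Dazl, Ddx4 and Figla were tested and were all called lower in blastocysts. Among trophectoderm markers, Krt8, Krt18, Eomes, Gata3, Tfap2c, Dsp and Elf3 were all called higher in blastocysts. Cdx2, the transcription factor that founds the trophectoderm, was too dim to test, with signals of 3.8, 15.4 and 5 on the blastocyst arrays, against 2.4, 1.5, 2.9 and 1.8 on the oocyte arrays. The probe set of Cdx2 thus stayed near background at both stages. Pou5f1, Nanog, Sox2, Fgf4, Gata6, Sox17 and Pdgfra were called higher in blastocysts, while Gata4 had 69.9 ± 28.9 in blastocysts, against 88.6 ± 19.1 in oocytes, and was not called (adjusted p = 0.523).

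Genes of the egg coat and of oocyte transcription stood among the steepest falls. The list had 8 members tested, of which 7 were lower in blastocysts, 0 higher and 1 not called (Gata4), with a median change of -3.83 beside -0.09 over all genes tested. Zp2, a sperm-binding glycoprotein of the zona pellucida, had signals of 6.1, 5.8 and 11.8 on the blastocyst arrays and 5282, 6201, 4811 and 4797 on the oocyte arrays. Zp3, its partner in the coat filaments, had 34.1, 34 and 31.4 in blastocysts, against 7247, 6749.7, 7352 and 7428 in oocytes. Neither gene had any overlap between the stages, and every blastocyst array lay below 41.1. The log2 changes were -8.13 ± 0.29 for Zp2 (adjusted p = 1.09e-15, and -5.29 at its other probe set), -7.35 ± 0.22 for Zp3 (adjusted p = 4.84e-17) and -5.32 ± 0.24 for Zp1, which cross-links the filaments. Their regulators fell too. Lhx8, a LIM homeobox factor needed for early oocyte growth, had 10.2 ± 3.65 in blastocysts, against 1551 ± 90.5 in oocytes (log2 change -6.22 ± 0.25). Figla, the basic helix-loop-helix activator of the zona genes, had 19.9 ± 7.76 in blastocysts, against 147 ± 43.7 in oocytes (-2.35 ± 0.28), and the homeobox factor Nobox changed by -1.59 ± 0.44.

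Signals that pass between the oocyte and its follicle were lower in blastocysts as well. Of 10 genes in the list of oocyte secreted factors and receptors, 7 were lower, 1 was higher (the activin receptor Acvr2b, 1.37 ± 0.32) and 2 were not called (Acvr2a and Timp1). Gdf9, a growth factor that acts on granulosa cells, had 117, 117 and 91.9 on the blastocyst arrays and 7422, 7299, 7999.5 and 7918 on the oocyte arrays. Its close relative Bmp15 had 5.5, 10.1 and 4.3 in blastocysts, against 1338, 1284, 1286 and 843 in oocytes. All blastocyst arrays lay below all oocyte arrays for both, at log2 changes of -6.01 ± 0.15 and -6.08 ± 0.26. Gja4, the connexin of the gap junctions between oocyte and granulosa cells, changed by -6.49 ± 0.18, and Bmp6 by -5.37 ± 0.21. Kit, the receptor for the follicle's Kit ligand, changed by -4.27 ± 0.18. Gpr3, a receptor that keeps cyclic AMP high and so holds meiosis, had 7.67 ± 0.611 in blastocysts, against 174 ± 34.9 in oocytes (-3.29 ± 0.21).

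Regulators of meiosis and of egg activation split by size of change. Of 17 tested, 11 were lower, 2 were higher and 4 were not called, and the median change was -0.61. Mos, Plat and Rgs2 were among the steepest falls. Mos, the kinase that keeps the mature egg in metaphase, had 39.9, 31.6 and 29.7 in blastocysts, against 3622, 4323, 3858 and 3731 in oocytes (log2 change -6.45 ± 0.28). The secreted protease Plat, a classic dormant maternal mRNA, had 126 ± 55.4 in blastocysts, against 6680.4 ± 363 in oocytes (-5.69 ± 0.26). Rgs2, a regulator of G protein signalling, had 0.6, 1.3 and 0.9 in blastocysts, against 3537, 5273, 3296 and 4797 in oocytes (-8.44 ± 0.25). Aurka, Plk1 and Mad2l1, mitotic genes of the same list, fell by less than these. They changed by -0.68 ± 0.17 for the spindle kinase Aurka, -0.56 ± 0.15 for Plk1 (-1.90 and -0.74 at its other probe sets) and -1.41 ± 0.18 for the checkpoint protein Mad2l1. The 2 genes that rose were Cdc20, an activator of the anaphase-promoting complex (0.83 ± 0.15), and Cd9, the egg tetraspanin of sperm fusion. Cd9 had 2009 ± 677 in blastocysts, against 477 ± 54.1 in oocytes (2.01 ± 0.20). With the spike scaling Cdc20 was not called (adjusted p = 0.179), which left 1 rise.

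A list was compiled for maternal effect genes, those whose product in the egg is needed by the embryo. That need was not tested here for any member, Trim61 included. Members were lower in 10 of 12 cases, with 0 higher and 2 not called. The list median was -2.80. Trim61, a gene of the tripartite motif family, had 13.5, 7.8 and 10.5 in blastocysts, against 5431, 5200.4, 5364 and 5378 in oocytes (-7.96 ± 0.26). Bnc1, the zinc finger protein basonuclin, fell to 15.6 ± 6.69 in blastocysts, against 703 ± 141 in oocytes (-4.76 ± 0.22). The imprint-protecting zinc finger gene Zfp57 had 6.47 ± 2.37 in blastocysts, against 294 ± 61 in oocytes (-4.11 ± 0.25). Uchl1, an abundant deubiquitinase of the egg, changed by -3.85 ± 0.39, and the Polycomb gene Bmi1 by -2.92 ± 0.22. Dppa3, which shields the maternal genome from demethylation, kept a strong signal, with 3054, 2269 and 2132 in blastocysts, against 4088, 4910.3, 4590.4 and 5426 in oocytes (-0.94 ± 0.16). Spin1, a spindle-associated chromatin reader, was lower at all 4 of its probe sets, from -3.03 to -5.54.

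Proteins that store, tail and destroy maternal mRNA went both ways. Of 20 tested, 12 were lower, 5 higher (3 with the spike scaling) and 3 not called. The germ cell members were among the falls. Btg4, the adaptor that brings the deadenylase to maternal mRNA, had 11.2, 4.9 and 3.2 in blastocysts, against 4709, 5845, 4459 and 4850.4 in oocytes (-8.18 ± 0.21). Dazl, a translational activator of germ cells, changed by -5.97 ± 0.40 (and by -1.29 at a second probe set), the helicase gene Ddx4 by -3.13 ± 0.31, the masking protein gene Ybx2 by -2.82 ± 0.23 and Cpeb1, which binds the cytoplasmic polyadenylation element, by -2.94 ± 0.26. Lsm14b, a protein of stored mRNA particles, had 118 ± 47.3 in blastocysts, against 3124 ± 441 in oocytes (-4.65 ± 0.20). Slbp, which binds histone mRNA, changed by -2.90 ± 0.17. The members that rose were Zfp36l2 and Zfp36l1, decay factors that bind AU-rich elements (3.63 ± 0.30 and 2.02 ± 0.27), the helicase Ddx6 (1.15 ± 0.26), the somatic Y-box protein Ybx1 (0.97 ± 0.17) and the terminal uridylyltransferase Tut7 (0.93 ± 0.21). Ybx1 and Tut7 were the calls lost with the spike scaling (adjusted p = 0.0538 and 0.0812). A second probe set of Zfp36l2 gave 0.22 and was not called.

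Both measured Tcl1 family members, cofactors of the kinase Akt, were lower: Tcl1b1 had 12.6, 14.5 and 16.6 in blastocysts, against 4105, 4465, 3837 and 3772 in oocytes (-7.31 ± 0.16), and Tcl1 changed by -4.81 ± 0.26. The oocyte linker histone gene H1f8 had 9.1, 30.2 and 18.3 in blastocysts, against 4004, 5213, 4194 and 4958 in oocytes, with a log2 change of -7.30 ± 0.22. Of the somatic linker histones, H1f1 changed by -2.35 ± 0.32 and H1f2 by 1.03 ± 0.36, the single rise among the 7 linker histone and DNA methyltransferase genes tested. The call of H1f2 ended without blastocyst array 1 (adjusted p = 0.0623) or blastocyst array 2 (adjusted p = 0.114). Dnmt1, the maintenance methyltransferase, had 237 ± 26.5 in blastocysts, against 2678 ± 475 in oocytes (-3.43 ± 0.17), but a second probe set gave 0.30 and was not called. The de novo methyltransferase gene Dnmt3a changed by -2.06 ± 0.23 and Uhrf1, which guides Dnmt1 to replicated DNA, by -1.45 ± 0.36.

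The 25 genes with the steepest falls also held genes of other functions. Miox, which starts the breakdown of inositol, had 3.9, 2.2 and 1.3 in blastocysts, against 2393, 2726, 3092 and 3448 in oocytes (-7.75 ± 0.19). Bpgm, which makes 2,3-bisphosphoglycerate, had 31.5 ± 1.95 in blastocysts, against 6412 ± 879 in oocytes (-7.23 ± 0.25), and Aass, of lysine breakdown, changed by -7.12 ± 0.25. The same group held Bcl2l10, a cell death regulator of the Bcl2 family that is prominent in oocytes. It had 23.4, 21.4 and 28.6 in blastocysts, against 6993, 8245, 7813 and 7726 in oocytes (-7.77 ± 0.23), while a second, dim probe set gave 0.10 and was not called. Itpr2, an inositol trisphosphate receptor that releases calcium, changed by -7.15 ± 0.27 and by -6.77 at its other probe set. Klf17, a Krüppel-like factor, had 4.9 ± 5.29 in blastocysts, against 1623 ± 48.7 in oocytes (-6.73 ± 0.21; -0.36 at another probe set). Other members were the oocyte gene Omt2b (-7.93 ± 0.19), the Axin-binding Zbed3 (-6.31 ± 0.21), Gdap1 (-6.76 ± 0.17), and C86187, which had 2.5, 3.6 and 2.6 in blastocysts, against 6378, 5548, 6569 and 5788 in oocytes (-8.77 ± 0.18). The order of the steepest falls depended on the offset, since blastocyst signals lay below it: with an offset of 1.1 the change was -10.58 for C86187 and -11.01 for Rgs2.

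**Figure D2:**
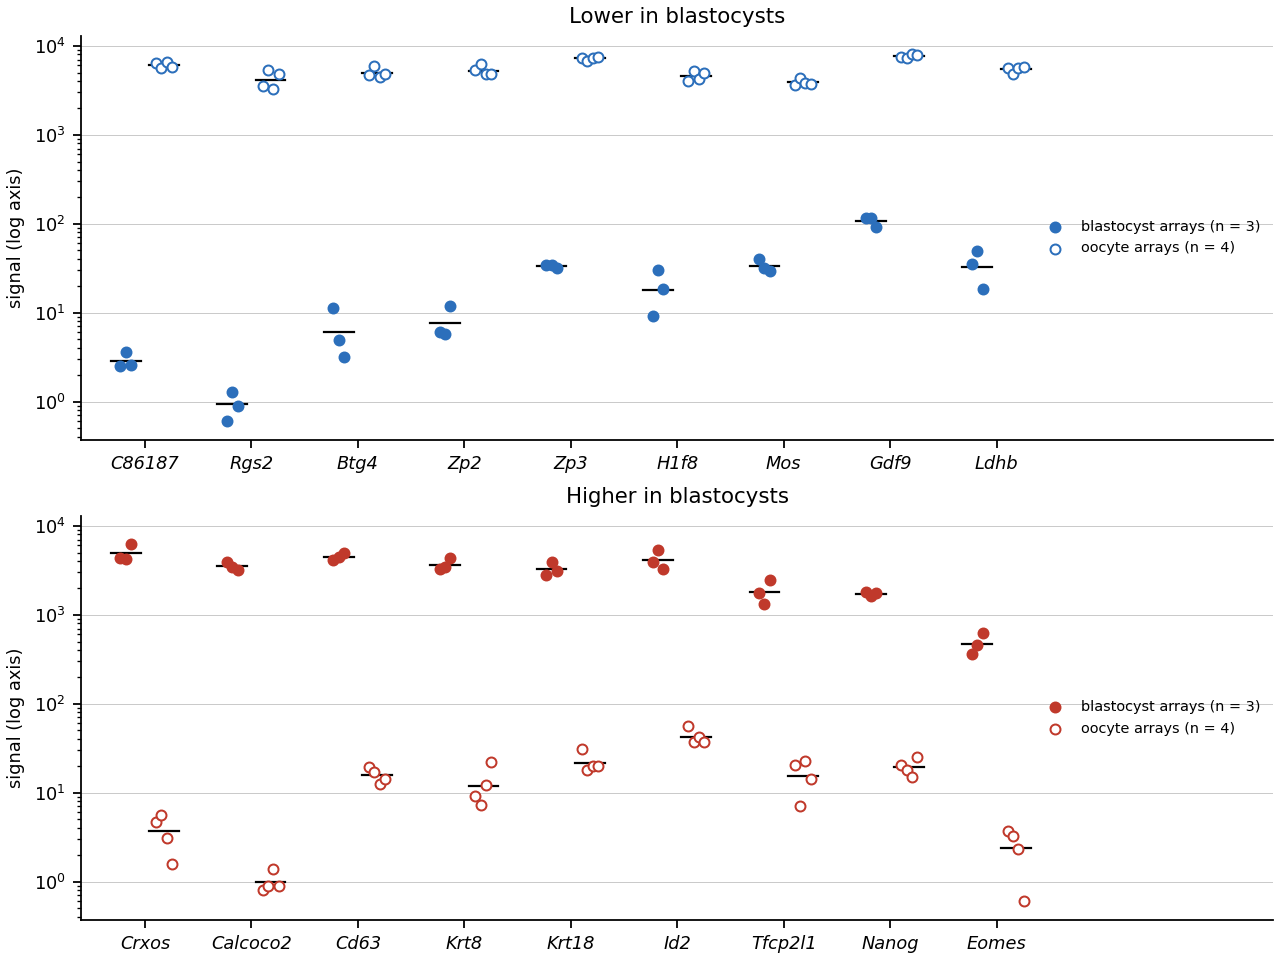
Signal on each of the 7 arrays (log axis) for 9 genes lower (top) and 9 genes higher (bottom) in blastocysts. Filled circles are the 3 blastocyst arrays, open circles the 4 oocyte arrays and bars the means of log2(signal + 11) put back on the signal scale. In none of these genes do the stages overlap, as in 68.3% of all genes tested. Those taken from the largest rises and falls had been chosen for this lack of overlap.

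CpG is the dinucleotide at which DNA is methylated. Promoters of the 25 largest falls and of the 25 largest rises had lower median CpG ratios than those of all genes tested. The wider sets of genes that rose or fell at least 8-fold lay closer to all genes tested. Sequences were taken from RefSeq promoters of build GRCm38.p6, over the 250 bases before each gene's start, and where a gene had several starts the first listed was used. The ratio of observed to expected CpG had a median of 0.30 in the 21 promoters found for the 25 largest falls and 0.52 in the 22 found for the 25 largest rises, against 0.73 in the 4870 found for the 6044 genes tested and 0.38 in all 27025 genes of the promoter table. A ratio above 0.6 was held by 7 of 21, 8 of 22 and 3299 of 4870 promoters, and by 34.5% of the whole table. The median was 0.68 in 254 promoters of the 312 genes that rose at least 8-fold. It was 0.70 in 215 promoters of the 274 genes that fell at least 8-fold and 0.69 in 1612 promoters of the 2041 genes not called. In these 2 sets 78.5% and 79.0% of the genes had a promoter in the table, beside 80.6% of all genes tested. Their medians cover only the promoters found. Ribosomal protein promoters had a median of 0.85 (23 promoters). These are descriptions of genes chosen by their change, with no test. The ratio ran from 0.06 to 1.04 among the 21 promoters of the largest falls and from 0.00 to 1.08 among the 22 of the largest rises. The 4 promoters below show a CpG-poor and a CpG-richer example for each direction, with every CpG in capitals, written 5′ to 3′ on the strand of the gene, for Btg4 (chr9:51115751-51116000, plus strand, 1 CpG) and Rgs2 (chr1:144004150-144004399, minus strand, 30 CpG), which fell, and Krt8 (chr15:102004343-102004592, minus strand, 3 CpG) and Id2 (chr12:25096093-25096342, minus strand, 18 CpG), which rose.
Btg4: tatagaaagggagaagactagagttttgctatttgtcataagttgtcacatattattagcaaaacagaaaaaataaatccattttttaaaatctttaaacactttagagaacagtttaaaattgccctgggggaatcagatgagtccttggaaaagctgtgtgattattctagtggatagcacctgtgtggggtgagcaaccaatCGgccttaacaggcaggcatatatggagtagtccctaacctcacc
Rgs2: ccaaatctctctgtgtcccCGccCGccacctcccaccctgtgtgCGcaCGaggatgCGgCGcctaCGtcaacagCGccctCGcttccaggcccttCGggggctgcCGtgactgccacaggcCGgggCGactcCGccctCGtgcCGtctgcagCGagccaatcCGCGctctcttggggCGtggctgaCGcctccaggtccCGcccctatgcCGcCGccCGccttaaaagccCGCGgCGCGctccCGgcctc
Krt8: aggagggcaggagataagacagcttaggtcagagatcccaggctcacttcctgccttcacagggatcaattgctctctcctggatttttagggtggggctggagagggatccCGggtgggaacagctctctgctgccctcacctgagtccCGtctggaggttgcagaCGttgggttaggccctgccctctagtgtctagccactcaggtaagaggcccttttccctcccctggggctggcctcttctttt
Id2: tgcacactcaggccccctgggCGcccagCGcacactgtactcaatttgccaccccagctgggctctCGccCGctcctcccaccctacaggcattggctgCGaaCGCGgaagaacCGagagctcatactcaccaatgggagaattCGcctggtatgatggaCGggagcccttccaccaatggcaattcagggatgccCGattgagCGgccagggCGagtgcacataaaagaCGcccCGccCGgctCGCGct
Btg4 and Rgs2 fell by like amounts (-8.18 and -8.44) with CpG ratios of 0.11 and 0.96. Both were picked from the 25 largest falls as a CpG-poor and a CpG-richer example, so they cannot relate change to ratio.

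Pluripotency genes were mostly higher in blastocysts. Of 26 tested, 19 were higher (73.1%, beside 32.4% of all genes), 3 lower and 4 not called, with a median change of 1.85. In bulk samples such as these, here and for the other lineages, fewer cells of a type and less RNA per cell cannot be told apart. Nanog, the homeobox factor of the epiblast, had 1789, 1626 and 1762 on the blastocyst arrays and 20.6, 18, 14.9 and 25.4 on the oocyte arrays. Tfcp2l1, a transcription factor of naive pluripotency, had 1744, 1314 and 2449.9 in blastocysts, against 20.4, 7.1, 22.9 and 14.4 in oocytes. All blastocyst arrays lay above all oocyte arrays for both, at log2 changes of 5.83 ± 0.19 and 6.08 ± 0.32 (3.88 and 2.42 at their other probe sets). Sox2, the partner of Oct4, had 1114 ± 244 in blastocysts, against 37.1 ± 4.07 in oocytes (4.53 ± 0.24). Pou5f1, which encodes Oct4, was already measured in oocytes and had 668, 561 and 602 in blastocysts, against 276, 241, 357 and 283 in oocytes (1.06 ± 0.20), a call lost with the spike scaling (adjusted p = 0.0799). Zfp42 (4.71 ± 0.23), Fbxo15 (4.57 ± 0.18), the Krüppel-like factor gene Klf4 (3.78 ± 0.18), Gdf3 (3.27 ± 0.39) and the Nodal co-receptor Tdgf1 (3.22 ± 0.27) also rose. The 3 that fell were the homeobox gene Gbx2, with 9.97 ± 3.74 in blastocysts, against 847 ± 69.4 in oocytes (-5.37 ± 0.27), Dppa3 (above) and Mybl2 (-0.73 ± 0.21).

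Trophectoderm genes were higher in 20 of 26 cases (76.9%), lower in 2 and not called in 4, with a median change of 1.99. Eomes, a T-box factor of the trophoblast, had 361, 458 and 627 in blastocysts, against 3.7, 3.3, 2.3 and 0.6 in oocytes (5.16 ± 0.26). Id2, which blocks basic helix-loop-helix factors, had 3943, 5344 and 3262 in blastocysts, against 56.5, 37.5, 41.9 and 37 in oocytes (6.26 ± 0.41). For both, the lowest blastocyst array was far above the highest oocyte array. Klf5 (5.57 ± 0.32), Klf6 (4.59 ± 0.38) and the ETS factors Elf5 (3.81 ± 0.29) and Elf3 (3.51 ± 0.29) showed large changes from dim oocyte signals. Gata3, a driver of trophoblast fate, had 777 ± 132 in blastocysts, against 139.7 ± 15.4 in oocytes (2.38 ± 0.22), and the AP-2 factor gene Tfap2c had 1320.4 ± 252 in blastocysts, against 292 ± 45.1 in oocytes (2.13 ± 0.17). Those that fell were Yap1, the Hippo pathway coactivator, with 618, 814 and 695 in blastocysts, against 3055, 2944, 3614 and 2735 in oocytes (-2.11 ± 0.14), and Ets2 (-0.88 ± 0.22). Tead4, the DNA-binding partner of Yap1, changed by 0.65 ± 0.15, and by 1.99, 3.01 and 2.19 at its other probe sets, and with the spike scaling the change at its brightest probe set was not called (adjusted p = 0.387).

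Primitive endoderm genes were higher in 13 of 22 cases (59.1%) and lower in 5 (22.7%), beside 32.4% and 33.8% of all genes. The median was 0.93, and with the spike scaling it was 0.62, with 10 higher and 5 lower. Apoe, a lipid carrier, had 555 ± 237 in blastocysts, against 18.2 ± 9.19 in oocytes (4.21 ± 0.50), and the endocytic receptor gene Lrp2 had 599, 481 and 699.8 in blastocysts, against 29.9, 39.3, 26.7 and 19.5 in oocytes (3.93 ± 0.26). Pdgfra, the receptor that marks primitive endoderm, changed by 2.87 ± 0.35, although its second probe set gave 0.06 and was not called. The transcription factor genes Gata6 (1.84 ± 0.20) and Sox17 (1.92 ± 0.33) rose. The 5 that fell were Lamb1 (-2.58 ± 0.21), Cited2 (-2.48 ± 0.27), Srgn (-1.79 ± 0.29), P4ha1 (-1.54 ± 0.22) and Afp (-1.13 ± 0.28). Basement membrane genes went both ways, with 8 higher and 5 lower of 16. Of the 7 laminin chains tested, 4 were higher and 3 lower (2 higher and 3 lower with the spike scaling), counted after the values were seen. Lama5 (1.48 ± 0.22), Lama3 (1.15 ± 0.28), Lamc1 (0.78 ± 0.30) and Lama1 (0.77 ± 0.28) were higher and Lamb1, Lama2 (-1.47 ± 0.31) and Lama4 (-1.94 ± 0.23) lower in blastocysts. With the spike scaling Lamc1 (adjusted p = 0.25) and Lama1 (adjusted p = 0.189) were not called. Lamc1 was also not called without blastocyst array 1 (0.147), blastocyst array 2 (0.109) or oocyte array 4 (0.0965), nor Lama1 without blastocyst array 2 (0.147) or oocyte array 1 (0.0652), each an adjusted p from limma. The linker proteins Nid1 (1.73 ± 0.29) and Nid2 (3.06 ± 0.29) rose, as did the collagen IV chain Col4a1 (1.21 ± 0.36).

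A list of simple-epithelium keratins and desmosome genes, for the filaments and spot junctions of an epithelium, had 10 of 11 genes higher, 0 lower and 1 not called (Pkp4), a share of 90.9%, and with the spike scaling 8 rises and 0 falls. The list does not hold all keratins. Of the 20 keratin genes tested, 6 were higher, 6 lower and 8 not called (4 higher and 7 lower with the spike scaling), a count made after the values were seen. Krt12, a cornea keratin chosen after its values were seen, had 12.9, 47.8 and 25.4 in blastocysts, against 452, 464, 484 and 542 in oocytes (-3.74 ± 0.32). Krt8 and Krt18, which pair into the filaments of simple epithelia, were near background in oocytes. Krt8 had 3231, 3404 and 4331 on the blastocyst arrays and 9.1, 7.2, 12.2 and 22.2 on the oocyte arrays (7.30 ± 0.40). Krt18 had 2788, 3939.8 and 3108 in blastocysts, against 30.7, 17.9, 19.7 and 20.1 in oocytes (6.63 ± 0.23). Desmoplakin (Dsp) had 789 ± 290.3 in blastocysts, against 70.8 ± 65.5 in oocytes (3.57 ± 0.45), and the desmosomal cadherins Dsg2 and Dsc2 changed by 2.96 ± 0.31 and 2.31 ± 0.25.

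Junction and polarity genes were higher in 20 of 33 cases and lower in 10. Epcam, an epithelial adhesion molecule, had 869, 886 and 829.5 in blastocysts, against 8.5, 2, 6.2 and 1.6 in oocytes (5.83 ± 0.31). Claudins of tight junctions parted, with Cldn7 (5.48 ± 0.20), Cldn6 (3.49 ± 0.29), Cldn4 (2.96 ± 0.26) and Cldn3 (2.29 ± 0.31) higher and Cldn8 lower (-2.24 ± 0.36). F11r, the junctional adhesion molecule A, had 1564 ± 130.5 in blastocysts, against 30.2 ± 5.43 in oocytes (5.26 ± 0.22). The gap junction gene Gja1 had 4848 ± 759.8 in blastocysts, against 423 ± 232 in oocytes (3.66 ± 0.36), opposite in direction to the oocyte connexin Gja4. Proteins that tie the cortex to the membrane parted, with Msn (4.12 ± 0.26) and Ezr (2.81 ± 0.24) higher and Rdx (-2.92 ± 0.21) lower. Vil1, the actin bundler of microvilli, had 1, 1.3 and 0.5 in blastocysts, against 328, 417, 473 and 472 in oocytes (-5.17 ± 0.20). E-cadherin (Cdh1), the core of the adherens junction, had 166, 179 and 101 in blastocysts, against 169, 165, 159 and 169 in oocytes and was not called (95% interval of the log2 change -0.61 to 0.25).

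Of 8 ion pumps and water channels tested, 3 were higher, 2 lower and 3 not called, beside 32.4% higher and 33.8% lower of all genes. With the spike scaling 1 was higher and 3 were lower. Aqp8 rose to 247 ± 53.2 in blastocysts, against 42.8 ± 13.2 in oocytes (2.27 ± 0.30). The sodium pump subunit Atp1b1 changed by 0.62 ± 0.25 and Atp1b3 by -0.57 ± 0.18. The other calls were Car4, a carbonic anhydrase (0.99 ± 0.24), and Aqp1 (-1.78 ± 0.42). The calls of Atp1b1 and Car4 were those lost with the spike scaling (adjusted p = 0.402 and 0.0599), and that of Atp1b1 also ended without any one of oocyte arrays 1, 2 and 3 or blastocyst array 1 (adjusted p up to 0.145).

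Of 42 actin cytoskeleton genes, 27 were higher (64.3%) and 7 lower, a median of 1.30. Tmsb4x, which binds actin monomers, had 937, 1763 and 679 in blastocysts, against 3.7, 5, 8.1 and 7.9 in oocytes (5.94 ± 0.53). The spread over the blastocyst arrays was wide, yet all lay above the oocyte arrays. Beta-actin (Actb) changed by 3.99 ± 0.17, gamma-actin (Actg1) by 2.43 ± 0.15, and the tropomyosins Tpm4 and Tpm1 by 3.75 ± 0.19 and 3.63 ± 0.22. Tubulins and kinesins leaned the other way, with 14 of 28 lower and 5 higher. The beta-tubulin genes Tubb6 (348 ± 103 in blastocysts, against 4559.8 ± 246 in oocytes, change -3.71 ± 0.19) and Tubb3 (-2.63 ± 0.14) fell, while the alpha-tubulin genes Tuba1a (1.14 ± 0.19) and Tuba1c (0.86 ± 0.17, adjusted p = 0.168 with the spike scaling) rose. Tubb2a fell by 3.84 at its brightest probe set and gave 0.03 at another. With only plainly named probe sets, those without a suffix for cross-matching or left-out probes, 8 of this list were lower and 3 higher.

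**Figure D3:**
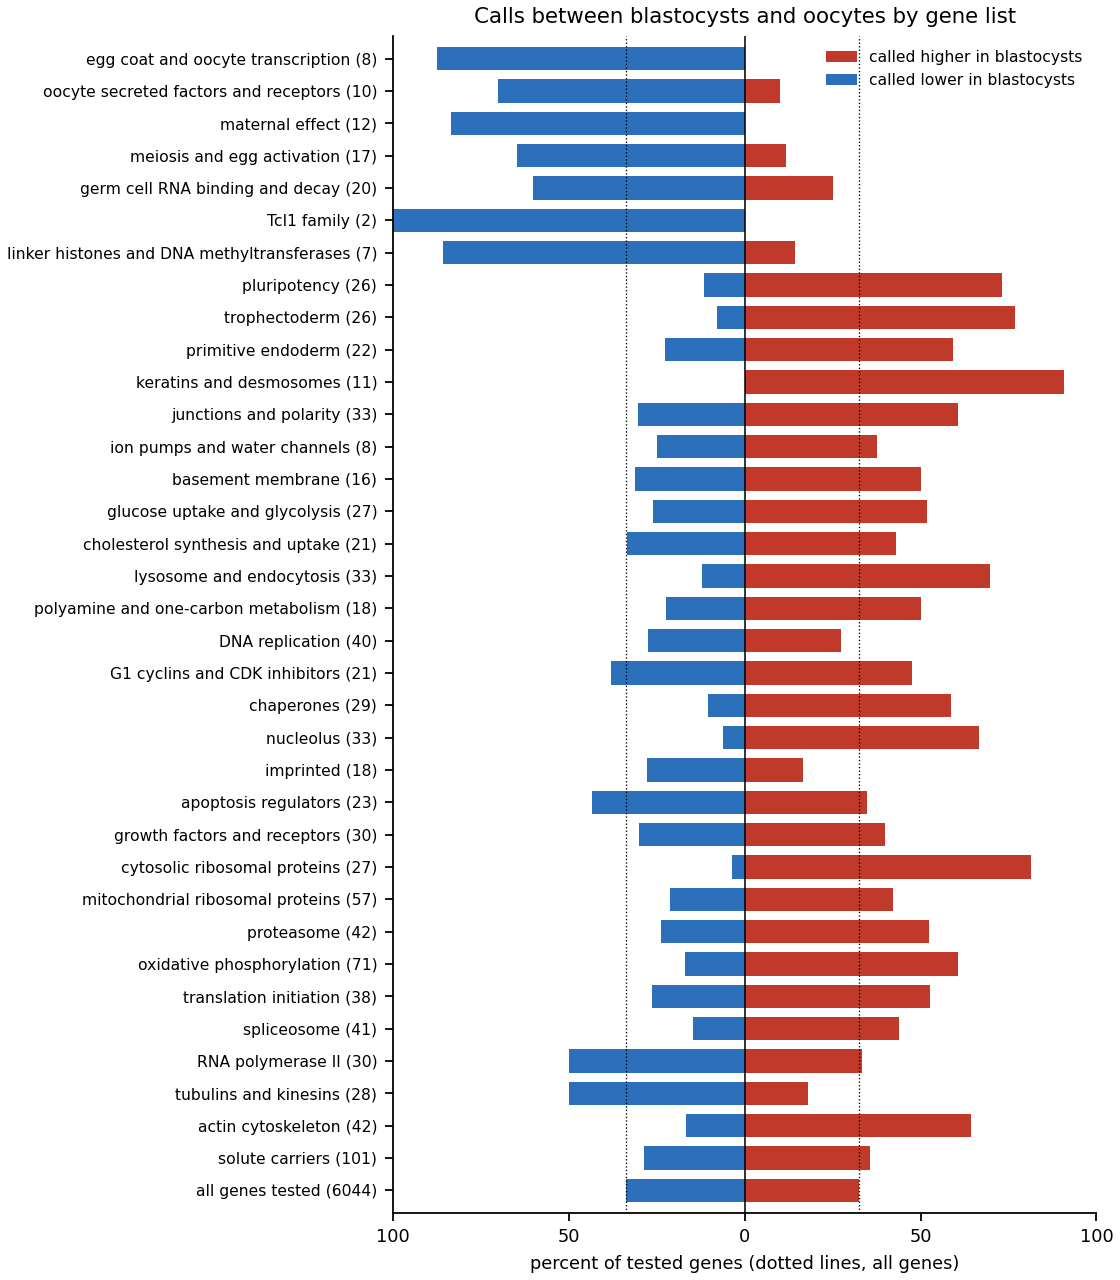
Share of tested genes called higher (right of 0) and called lower (left of 0) in blastocysts for each gene list, as percent, with the number tested in brackets and all 6044 genes at the bottom. The 7 oocyte lists at the top reach farther left than right of 0, and the keratin and desmosome, ribosomal protein, trophectoderm and pluripotency lists reach farthest to the right with the signals as deposited.

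Among enzymes of glucose use, isoforms changed in opposite directions. Of 27 genes, 14 were higher and 7 lower. Ldhb, the lactate dehydrogenase subunit that favours lactate as fuel, had 35.5, 49.8 and 18.5 in blastocysts, against 5669, 4858, 5581 and 5806 in oocytes (-6.97 ± 0.26). Ldha, the subunit of glycolytic tissue, had 249.7, 243 and 211 in blastocysts, against 58.6, 11.6, 13.8 and 17.5 in oocytes (2.91 ± 0.36). The 2 subunits thus moved in opposite directions, with no overlap of arrays in either. The germ cell form Ldhc also fell (-2.69 ± 0.32). Hk2, the hexokinase that starts glucose use, had 1685 ± 251 in blastocysts, against 26.5 ± 7.46 in oocytes (5.51 ± 0.31). Slc2a3, the high-affinity glucose transporter of the blastocyst, had 530.2 ± 176 in blastocysts, against 18.3 ± 9.44 in oocytes (4.23 ± 0.32). The glycolytic genes Pgam1 (2.92 ± 0.17), Pgk1 (1.50 ± 0.17) and Aldoa (1.21 ± 0.15) rose, and Pkm fell (-0.79 ± 0.21). For pyruvate entry into mitochondria, the dehydrogenase subunits Pdha1 (1.41 ± 0.22) and Pdhb (2.38 ± 0.19) rose, and the kinases that inactivate the enzyme, Pdk3 (-4.83 ± 0.19) and Pdk1 (-1.56 ± 0.27), fell.

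Oxidative phosphorylation genes were higher in 43 of 71 cases and lower in 12, a median of 0.83. With the spike scaling 25 were higher and 12 lower. Cyc1, a subunit of complex III, had 5641 ± 454 in blastocysts, against 321 ± 85.4 in oocytes (4.12 ± 0.18), but -0.52 at another probe set. Cytochrome c (Cycs) changed by 3.44 ± 0.19 and the ATP synthase subunit gene Atp5c1 by 2.20 ± 0.18. The steepest falls of the list were at tissue-restricted forms of cytochrome c oxidase, Cox6a2 (17.8 ± 14.9 in blastocysts, against 341 ± 37.7 in oocytes, -3.73 ± 0.29) and Cox6b2 (-3.11 ± 0.24). The general form Cox6a1 rose (1.02 ± 0.20), a call lost with the spike scaling (adjusted p = 0.0529).

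Ribosomal proteins of the cytosol were higher in 22 of 27 cases (81.5%), lower in 1 (Rps29, -0.56 ± 0.19, adjusted p = 0.0928 without blastocyst array 3) and not called in 4, with a median of 1.85. Rps19 had 2736 ± 1352 in blastocysts, against 264 ± 49.1 in oocytes (3.23 ± 0.34), and Rps3 (3.22 ± 0.22) and Rpl8 (3.00 ± 0.16) changed by like amounts. Ribosomal proteins of mitochondria were higher in 24 of 57 cases and lower in 12, with a median of 0.31, and with the spike scaling 15 were higher and 13 lower, with a median of -0.03. Genes that assemble ribosomes in the nucleolus were higher in 22 of 33 cases and lower in 2, and with the spike scaling in 14 and 3. Nop16 had 1483 ± 64.5 in blastocysts, against 41.9 ± 17.2 in oocytes (4.88 ± 0.21). The box C/D proteins Fbl (2.50 ± 0.24) and Nop56 (2.06 ± 0.17) and the RNA polymerase I subunit Polr1b (2.16 ± 0.17) rose. Ribosomal proteins of mitochondria were less uniform, with 24 higher, 12 lower and 21 not called of 57. Their median was 0.31, and with the spike scaling it was -0.03, with 15 higher and 13 lower.

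Translation initiation factors were higher in 20 of 38 cases (13 with the spike scaling) and lower in 10. Eif1a had 942 ± 24.1 in blastocysts, against 19.3 ± 8.97 in oocytes (5.02 ± 0.19, and 3.80 at another probe set), and Eif2b5 changed by 4.15 ± 0.30. The eIF2 kinases Eif2ak1 (-2.31 ± 0.27) and Eif2ak4 (-1.92 ± 0.31), which slow initiation, fell. Eif4ebp1, which holds back the cap-binding protein, rose (3.68 ± 0.27), and the cap-binding protein gene Eif4e itself fell (-1.29 ± 0.23). Proteasome genes were higher in 22 of 42 cases (13 with the spike scaling) and lower in 10. Psmd13 of the regulatory particle changed by 3.61 ± 0.28 and the assembly chaperone Psmg2 by 4.42 ± 0.25. The list was taken by symbol and holds Psmc3ip and Psme3ip1, both lower, which are no proteasome subunits. Spliceosome genes were higher in 18 of 41 cases (11 with the spike scaling, where the median was 0.02), lower in 6 and not called in 17, with the splicing factor Srsf6 at 3.94 ± 0.22. For RNA polymerase II and its general factors 15 of 30 were lower and 10 higher, beside 33.8% and 32.4% of all genes. Gtf2b, a core factor of transcription start, had 779 ± 109 in blastocysts, against 4489 ± 1253 in oocytes (-2.48 ± 0.22), and the TATA-binding protein gene Tbp changed by -1.59 ± 0.16. The list also held 4 factors of RNA polymerase I, of which Taf1a and Taf1b were lower and Taf1c and Taf1d higher.

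Chaperones were higher in 17 of 29 cases (11 with the spike scaling) and lower in 3 (Hspa1a, Dnajb1 and Canx). Within the cytosolic chaperonin, which folds actin and tubulin, Cct6a (4.51 ± 0.32), Cct4 (3.28 ± 0.17) and Cct7 (3.03 ± 0.16) rose most. Several of its genes were not called, among them Cct5 (2855 ± 546 in blastocysts, against 3174 ± 245 in oocytes). The mitochondrial chaperone gene Hspd1 changed by 2.21 ± 0.16. The cochaperone Bag3 rose (5.37 ± 0.29). The stress-inducible Hspa1a (-1.39 ± 0.39) and Hspa1b (0.93 ± 0.38, adjusted p = 0.129 with the spike scaling and 0.322 without blastocyst array 2) went opposite ways, but their coding sequences are nearly identical, so each value is uncertain.

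Genes of the lysosome and of endocytosis were higher in 23 of 33 cases (69.7%) and lower in 4, a median of 1.17. Cd63, a tetraspanin of late endosomes, had 4088, 4427 and 4892 on the blastocyst arrays and 19.5, 17.1, 12.6 and 14.2 on the oocyte arrays (7.39 ± 0.16). The proteases cathepsin C (Ctsc, 5.80 ± 0.21), cathepsin L (Ctsl, 5.01 ± 0.25), cathepsin A (Ctsa, 4.64 ± 0.26) and cathepsin D (Ctsd, 2.09 ± 0.16) rose, while cathepsin H (Ctsh) had 26.2, 27.3 and 2.6 in blastocysts, against 1238, 1673, 1167 and 1189.8 in oocytes (-5.61 ± 0.30). Other probe sets of Ctsc gave 1.51 and 0.56. Hexa, which breaks down gangliosides, changed by 4.69 ± 0.30.

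One-carbon and polyamine metabolism was higher in 9 of 18 genes and lower in 4. Psat1, an enzyme of serine synthesis, had 1569 ± 424 in blastocysts, against 8.93 ± 6.52 in oocytes (6.33 ± 0.24). Folr1, a folate receptor, had 1287 ± 44.9 in blastocysts, against 14.1 ± 6.88 in oocytes (5.73 ± 0.19), and the glycine cleavage genes Gldc (4.60 ± 0.22) and Gcsh (3.96 ± 0.19) rose. Odc1, which starts polyamine synthesis, changed by 2.08 ± 0.19. The falls were Arg2, the mitochondrial arginase, with 12.5 ± 7.62 in blastocysts, against 1606 ± 216 in oocytes (-6.16 ± 0.27), Mthfd2 (-2.29 ± 0.24), Slc19a1 (-0.96 ± 0.23, and -0.52, not called, at another probe set) and Oaz2 (-0.84 ± 0.17). Cholesterol genes divided, with 9 higher (42.9%) and 7 lower (33.3%) of 21, beside 32.4% and 33.8% of all genes. Fdft1, which makes squalene, had 233 ± 51.1 in blastocysts, against 2149 ± 390.1 in oocytes (-3.15 ± 0.17), and Hmgcs1 changed by -2.07 ± 0.20. Both directions occurred among earlier and later enzymes of the pathway. Of the earlier ones, Fdps (1.22 ± 0.23) and Mvd (1.02 ± 0.32, adjusted p = 0.0661 without blastocyst array 3) rose. Of the later ones, Ebp (2.76 ± 0.22), Lss (1.45 ± 0.34) and Dhcr7 (1.35 ± 0.30) rose, and Sc5d (-2.54 ± 0.26), Hsd17b7 (-1.66 ± 0.32) and Nsdhl (-1.05 ± 0.20) fell.

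Solute carriers, the transporters of nutrients and ions, held 36 higher, 29 lower and 36 not called of 101, near the shares of all genes, and their median of 0.12 was -0.17 with the spike scaling. The creatine transporter gene Slc6a8 had 475 ± 71.2 in blastocysts, against 2.45 ± 1.33 in oocytes (5.17 ± 0.26), the peptide transporter gene Slc15a2 changed by 5.05 ± 0.29 and the amino acid transporter gene Slc38a4 by 4.23 ± 0.24. Slc39a6, a zinc importer, had 49 ± 9.71 in blastocysts, against 1666 ± 129.9 in oocytes (-4.81 ± 0.22). The cystine transporter gene Slc7a11 changed by -2.13 ± 0.28.

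Several other genes had large rises. Crxos, a homeobox gene of the early embryo, had 4362, 4279 and 6293 in blastocysts, against 4.7, 5.6, 3.1 and 1.6 in oocytes (8.39 ± 0.22, and 5.22 at another probe set). Calcoco2, an autophagy receptor, had 3935, 3424 and 3154 in blastocysts, against 0.8, 0.9, 1.4 and 0.9 in oocytes (8.19 ± 0.20). Both were near background on every oocyte array, so their order depended on the offset, with 10.06 for Crxos and 10.71 for Calcoco2 at an offset of 1.1. Pramel6 and Pramel7, of a family expressed in early embryos and germ cells, changed by 7.68 ± 0.20 and 6.57 ± 0.32. The fatty acid carrier Fabp3 (7.13 ± 0.37), the betaine methyltransferase Bhmt (7.11 ± 0.33, 2.04 at another probe set), the peptidase Enpep (6.51 ± 0.31, -0.44 at another probe set) and the fatty acid elongase Elovl6 (5.73 ± 0.23) also rose.

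Of 40 DNA replication genes, 11 were higher (27.5%), 11 lower (27.5%) and 18 not called, beside 32.4% higher and 33.8% lower of all genes. Their median was -0.03, beside -0.09 over all genes tested. With the spike scaling 5 were higher and 12 lower. The ribonucleotide reductase subunits Rrm2 (2.42 ± 0.14) and Rrm1 (2.00 ± 0.21), which make deoxynucleotides, rose. The origin recognition genes Orc5 (-3.15 ± 0.23) and Orc4 (-2.24 ± 0.20) fell. The sliding clamp gene Pcna had 2375 ± 99.4 in blastocysts, against 2605 ± 314 in oocytes (95% interval of the change -0.46 to 0.21). Among G1 cyclins and their inhibitors, 10 of 21 were higher (47.6%) and 8 lower (38.1%), beside 32.4% and 33.8% of all genes. Mycn (3.21 ± 0.31), the G1 kinase gene Cdk4 (1.96 ± 0.16) and the cyclin gene Ccnd3 (1.67 ± 0.21) rose. The retinoblastoma gene Rb1 (1.73 ± 0.85 in blastocysts, against 168 ± 25.6 in oocytes, -3.80 ± 0.29) and E2f5 (-4.35 ± 0.17) fell.

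Cell death regulators were split, 8 higher (34.8%) and 10 lower (43.5%) of 23, beside 32.4% and 33.8% of all genes. Beside Bcl2l10, the survival genes Birc3 (-3.65 ± 0.21) and Birc5 (-1.48 ± 0.20) fell and Mcl1 rose (2.77 ± 0.20), and the executioner protease gene Casp6 had 286, 328 and 398 in blastocysts, against 1.7, 1.4, 2.4 and 2.7 in oocytes (4.73 ± 0.21). Of growth factors and their receptors, 12 were higher and 9 lower of 30, beside 32.4% and 33.8% of all genes. The median change of this list was 0.15 (-0.08 with the spike scaling). Receptors of the ErbB family changed in opposite directions, with Erbb3 at 842 ± 199.8 in blastocysts, against 29.2 ± 2.54 in oocytes (4.38 ± 0.20) and Egfr at 6.1 ± 2.29 in blastocysts, against 446 ± 81.4 in oocytes (-4.73 ± 0.21). The fibroblast growth factor gene Fgf4, the signal of the inner cell mass, changed by 0.80 ± 0.17 (adjusted p = 0.213 with the spike scaling), and its receptor Fgfr2 by 1.18 ± 0.23, although another probe set of Fgfr2 gave -0.14 and was not called.

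Of 18 genes tested from a list of imprinted genes and Xist, 3 were higher, 5 lower (8 with the spike scaling) and 10 not called, a smaller share of calls (44.4%) than the 66.2% of all genes. Mest had 39.4 ± 10.3 in blastocysts, against 562 ± 46.7 in oocytes (-3.52 ± 0.29). Igf2 had 385 ± 70.0 in blastocysts, against 105 ± 26 in oocytes (1.78 ± 0.35), and its receptor gene Igf2r had 472 ± 116 in blastocysts, against 181 ± 30.8 in oocytes (1.32 ± 0.24). Xist, the RNA that coats the inactive X chromosome, had 322, 579 and 203 in blastocysts, against 15.3, 14.8, 7.8 and 23.7 in oocytes (3.75 ± 0.32). Eif2s3y, a gene of the Y chromosome, which an oocyte lacks, had 102, 50.9 and 94.9 in blastocysts, against 4.5, 3.8, 6.3 and 4.8 in oocytes (2.52 ± 0.28). The stages did not overlap, and the oocyte signals lay under the offset of 11.

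Markers of 4 other groups of cells were looked up. Of 12 cumulus and granulosa cell markers on the array 4 were tested and 1 was called, Inhba (-0.86 ± 0.30, adjusted p = 0.179 without blastocyst array 2 and 0.0506 without oocyte array 4), and the summed signal of the 12 was 468 to 657 on the blastocyst arrays and 699.5 to 729 on the oocyte arrays. Of 9 blood cell markers 4 were tested and 0 were called by limma (0 at an unadjusted p below 0.05 too), with sums of 175 to 221 on the blastocyst arrays and 138 to 166 on the oocyte arrays. Of 11 sperm markers 6 were tested and 4 were lower in blastocysts, Ldhc, Odf2 (-1.46 ± 0.22), Gapdhs (-1.28 ± 0.34) and Odf1 (-0.75 ± 0.29, adjusted p up to 0.0774 without 1 array), with sums of 324 to 493 on the blastocyst arrays and 734 to 985 on the oocyte arrays. Of 14 oviduct and uterus markers 10 were tested and 2 were higher, Wfdc2, with 199.7 ± 11.6 in blastocysts, against 2.92 ± 0.427 in oocytes (3.92 ± 0.36), and Muc1 (1.55 ± 0.46), with sums of 658 to 929 on the blastocyst arrays and 627 to 769 on the oocyte arrays. With the spike scaling 3 cumulus and granulosa markers and 3 oviduct and uterus markers were lower. Under the offset on all 7 arrays were Tnfaip6 of the granulosa list, Ptprc and S100a9 of the blood list, Pgk2, Akap4 and Zpbp of the sperm list and Acta2 of the uterus list. The part of such cells in any result was not tested.

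For the genes called with at least a 2-fold change, the course was read as the first stage whose mean lay past the midpoint between the ends, on the log2(signal + 11) scale, and stayed past it. Of the 1437 genes higher in blastocysts, 46 (3.20%) first passed it at the 1-cell, 468 (32.6%) at the 2-cell and 514 (35.8%) at the 8-cell stage, and 409 (28.5%) in blastocysts. Of the 1373 genes lower in blastocysts, 168 (12.2%) first passed it at the 1-cell, 306 (22.3%) at the 2-cell and 697 (50.8%) at the 8-cell stage, and 202 (14.7%) in blastocysts. The genes were chosen by their ends and the stages share arrays with that choice, so these are counts with no test. The series has no arrays between the 2-cell and 8-cell stages or between the 8-cell stage and the blastocyst. Each count therefore covers all change since the sampled stage before it.

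Single genes show this range of timing. The mean signal of Psat1 along the oocyte, 1-cell, 2-cell, 8-cell and blastocyst stages was 8.93, 6.33, 2050.2, 6118 and 1569, past its midpoint at the 2-cell stage and highest at the 8-cell stage. Nanog had 19.7, 20.2, 38, 1070.5 and 1726 along the same stages, and passed its midpoint at the 8-cell stage. Krt8 had 12.7, 24.5, 30.8, 296 and 3655, and passed it only in blastocysts, like Krt18, Id2, Eomes, Epcam and Tmsb4x. Among falls, Mos passed its midpoint at the 2-cell stage (3883, 2099, 139, 48.6 and 33.7 along the 5 stages) and so did H1f8 and Plat. Btg4 had 4966, 8783, 5230.2, 48.2 and 6.43, still high at the 2-cell stage, and passed its midpoint at the 8-cell stage, as Zp2, Zp3, Gdf9, Bcl2l10 and Ldhb did. Klf17 (1623, 4504, 3358, 482 and 4.9) and Ctsh fell past it only in blastocysts.

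**Figure D4:**
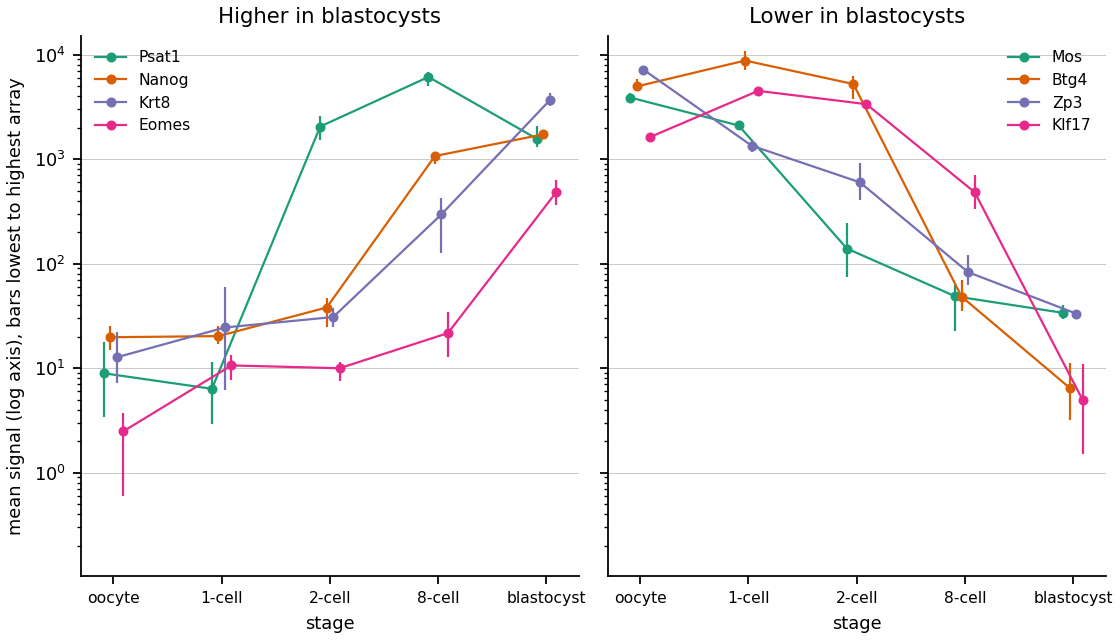
Mean signal (log axis) at each of the 5 stages, from oocyte to blastocyst, for genes that rose (left) and fell (right); points are stage means over 3 or 4 arrays and bars run from the lowest to the highest array. Psat1, Nanog and Krt8 passed their midpoints at successive stages, although Krt8 had already risen by the 8-cell stage. Mos, Btg4 and Klf17 passed theirs at successive stages too.

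**Figure D5:**
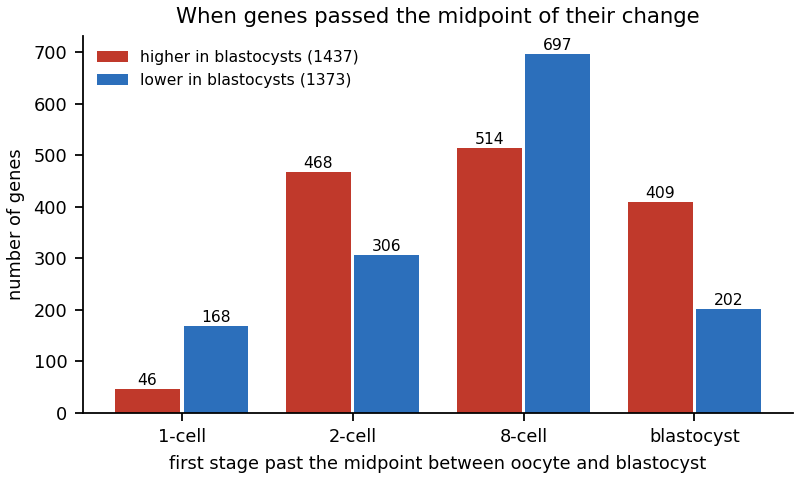
Number of genes, among 1437 higher and 1373 lower in blastocysts by at least 2-fold, by the first stage at which the mean lay past the midpoint between oocyte and blastocyst and stayed past it. The 8-cell bar is the tallest of both directions, at 514 and 697 genes, and covers all change since the 2-cell arrays.

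Some genes went outside the range of the ends in between. Dppa5a, which encodes a KH-domain protein that marks pluripotent cells, had 2658, 146, 1696, 7492 and 8167 from oocyte to blastocyst, so that the rise between the ends of 1.61 ± 0.18 spanned a dip at the 1-cell stage. The ATP synthase gene Atp5o (455, 12.8, 232, 521 and 1135) and the ribosomal protein gene Rpl10a (1165, 52.9, 1365, 5157 and 3359) also dipped at the 1-cell stage. Pdxk, the kinase that makes active vitamin B6, peaked at the 8-cell stage (8.07, 19.9, 1584, 4087 and 167). Of the 2041 genes not called between the ends, 1497 had a 95% interval of the change within -1 and 1, and for 284 of the 2041 the highest and lowest stage means lay at least 2 log2 units apart. Arg1, the cytosolic arginase, was such a gene, at 7.6, 5.13, 105, 575 and 7.77, and its change between the ends was -0.02 (95% interval -0.54 to 0.51).

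Of 1032 genes with more than 1 probe set tested, 50 were called higher at one and lower at another. Cyc1 (4.12 and -0.52) is the gene described above for which this holds, and its direction is therefore uncertain.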

How the data were processed

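Probe set signals on 17 single-colour MG-U74Av2 arrays were used as the authors deposited them, as intensity on a linear scale. How the signals were made is not given in the sources used here. The middle 96% of values averaged 149.45 to 149.92 on every array, and the array medians ran from 34.05 to 49.15. Probes were named through the platform annotation, with symbols updated by Entrez identifier: 10833 probe sets had 1 symbol, 396 several and 1193 none, and 66 control probe sets were left out. Samples were grouped by title.

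Log2(signal + 11), with the offset near the 25th percentile of 10.7, was fitted with limma 3.58.1 in R 4.3.3, with 1 mean for each of the 5 stages over all 17 arrays, an intensity trend, and Benjamini-Hochberg adjustment over the 8067 probe sets with a signal above 41.1 on at least 3 arrays. The script was tested on simulated data. The alternatives changed the scaling, offset, filter, trend, samples, probe set rule and replicate block. The members and lists were chosen with earlier results of these data known. Genes named are the 25 largest rises and 25 largest falls with arrays that do not overlap and a mean above 152.5 in the higher stage, list members, the 10 genes with the highest mean at each end, and the 10 called genes whose other stages lay farthest outside the ends. Across stages, arrays of the same number deviated together with correlations of 0.02, -0.01 and 0.09, so numbers do not pair samples.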

Additional observations from a re-analysis of the deposited data

Results flagged for a closer look

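Among 251 genes named, 17 had 1 of the 4 oocyte arrays standing apart from the other 3 by Dixon's test on the log2 scale, where chance gives about 1 in 20, and the blastocyst group of 3 arrays was not tested. Oocyte array 1 was high for Gata3 (162.7, against 131.5 to 132.9 on the others) and H1f1 (134.7, against 113.2 to 115.4). Oocyte array 2 was high for Ctsh (1673.2, against 1166.8 to 1237.8), Fdft1 (2730.7, against 1905.7 to 2006.4) and Klf17 (1695.8, against 1591.7 to 1605.4), and low for Ccnd3 (64.8, against 124.4 to 140.1), Fgf4 (169.5, against 207.3 to 214.9) and Lama3 (13.3, against 20.1 to 21.5). Oocyte array 3 was low for Slc2a3 (4.4, against 20.9 to 25.1) and Eif4ebp1 (33.1, against 37.5 to 37.9), and high for Calcoco2 (1.4, against 0.8 to 0.9). Oocyte array 4 was low for Bmp15 (842.8, against 1284.3 to 1338.3), P4ha1 (220.2, against 299.7 to 305.6), Enpep (7.0, against 15.2 to 16.2) and Ctsa (4.5, against 5.8 to 6.0), and high for Car4 (150.4, against 124.8 to 126.4) and Itpr2 (6441.6, against 5742.5 to 5851.5). The signals of Calcoco2 and Ctsa are under the offset. The direction and the call of these genes held without the array named.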

How the results depend on the processing

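Over 19 alternatives, the counts of calls over all probe sets or genes, with no fold limit or at least 2-fold, stayed within 1.5 times their main values. Counts at least 8-fold moved with the offset: 4 times the offset gave 153 genes higher and 148 lower and 189 probe sets higher and 172 lower, and an offset of 1.1 gave 599 probe sets higher, while the offset of 11 gave 312 genes higher and 274 lower and 399 probe sets higher and 324 lower. Leaving out 1 array gave 4858 to 5020 probe sets called, 3753 to 3880 genes called, 1832 to 1900 genes higher and 1853 to 1985 lower, and the fit with the replicate number as a block gave 5096 probe sets and 3942 genes. The numbers share only a name, and the block ended 2 calls among genes named, Odf1 (adjusted p = 0.0687) and Lama1 (0.0623), the second also not called with an offset of 1.1 (0.0596). Of 246 called genes named, 227 were called the same way in every alternative that tested them, 19 lost the call in at least 1 and 0 turned direction. The calls lost with the spike scaling stand in the text, and Atp1b1 was also not called with quantile normalization (adjusted p = 0.069), with the smaller offset (0.0511) or with no filter (0.056), nor Hspa1b with 4 times the offset (0.0544), no filter (0.0591) or no trend (0.0505). Arg1, not called, had a change of 0.00 with quantile normalization, with 4 times the offset and with the block, and -0.24 to 0.21 without 1 array. Cdh1, also not called, ran from -0.32 to 0.06 without 1 array. The stricter filter left fewer genes in a list and so lower counts. Signals near background, below the offset of 11, limit the fold of the steepest changes, and the cause of the other shifts was not tested.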
